A study of Mus musculus with 23 samples.

Results

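The genes described here are 42 immediate early and NF-kB response genes, listed by name with earlier results of these data known. In sorted mouse CD4+ T cells 41 of them had an array probe set that names them alone, and all 41 passed the filter on low values. They are 41 of the 12516 genes tested, out of 18193 genes with such a probe set, and the remaining listed gene is not analysed here. Levels are log2 array intensity, a relative brightness, so the level of one gene cannot be set against that of another.

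When a T cell receives a signal through its antigen receptor or a cytokine or danger receptor, MAP kinases, calcium and the NF-kB pathway act on factors that are already present in the cell. Immediate early genes are those transcribed first, without new protein synthesis, and their transcripts are short lived. They encode transcription factors (AP-1, Egr and Nr4a proteins), but also the brakes of the same response: phosphatases that switch off MAP kinases, inhibitors of NF-kB, and proteins that destroy short-lived mRNA. In T cells Egr and Nr4a genes are known as markers of recent antigen receptor signalling, and Rel, the c-Rel subunit of NF-kB, is known to take part in the formation of regulatory T (Treg) cells.

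The study profiled Treg cells of different sites and origins with Affymetrix M430v2 arrays, on 23 arrays in 9 groups of 2 to 4. All cells were sorted as CD3+ and CD4+ and negative for B220, CD8a and CD11b/c, from mice labelled male and 6 to 10 weeks old, and each array carried RNA pooled from several animals. C57BL/6 mice with a Foxp3-GFP reporter, 4 to 6 per array, gave 5 groups of 2 arrays. The small intestinal lamina propria (LP) was the source of GFP+ cells, called LP Treg here, and of their GFP- neighbours, called LP Tconv. From peripheral lymph nodes (LN) came GFP+ Treg cells sorted by CD103, an integrin chain, and by the receptor Klrg1 into CD103-Klrg1-, CD103+Klrg1- and CD103+Klrg1+ cells. The homeostatic groups, 3 arrays each of 2 to 3 mice, started from GFP- CD4+ cells of BDC2.5/NOD mice, which carry 1 transgenic antigen receptor. They were moved into NOD RAG-/- hosts, which lack T and B cells of their own, and sorted from spleen and lymph nodes 14 days later as Foxp3-GFP+ and Foxp3-GFP- cells. The DEC groups, of 5 to 10 mice per array, started from CD4+CD25- cells of HA6.5/Thy1.2/RAG-/-/Balb/c mice, whose receptor recognises hemagglutinin. The cells were put into Balb/c mice given 1 injection of DEC-HAPeptide at 50 ng per mouse, and CD25+ (3 arrays) and CD25- (4 arrays) cells were sorted from spleen and lymph nodes 3 weeks after transfer. The DEC groups were therefore separated by CD25 and not by Foxp3. LP and LN cells share strain, reporter and an untransferred origin but differ in tissue. Any difference in cell isolation between these tissues cannot be told apart from the tissue itself. The homeostatic and DEC systems differ from these and from each other in strain, antigen receptor, host and time, and the parts of these in a difference of level between systems cannot be told apart. The p-values below measure the spread between arrays of pooled mice.

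Some arrays stood apart. In the DEC CD25- group replicates 3 and 4 had the lowest median intensities (68.5 and 63.7, against 75.5 to 81.1 on the other arrays). In replicate 3 the log2 difference between the 3' and 5' probe sets of Gapdh was 6.59 (1.63 to 3.92 elsewhere), and the mean of the 6 T cell markers was 9.46, against 10.91 to 11.29 on the other 3 arrays of its group. Myeloid and dendritic cell markers (20 of 21 with a probe set) averaged 7.45 to 9.18 on the homeostatic arrays, 6.46 to 7.83 for DEC and 6.40 to 6.95 for LP and LN cells, although all were gated against CD11b/c. Xist, which female cells transcribe, ranged from 11.85 to 13.25 over the 7 DEC arrays and from 6.47 to 7.67 over the other 16, although all mice were labelled male.

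Over the 41 genes the mean level was highest in DEC cells and in gut cells. The mean over the genes was 10.95, 11.06 and 10.82 on the DEC CD25+ arrays, 10.84, 10.79, 9.48 and 10.53 on the DEC CD25- arrays, 10.74 and 10.25 on the LP Treg arrays and 10.44 and 9.68 on the LP Tconv arrays. On the 6 lymph node arrays it ran only from 9.09 to 9.45, and on the 6 homeostatic arrays from 8.74 to 9.99. The lymph node arrays were all below the 11 LP and DEC arrays, and the homeostatic arrays reached into both ranges. Of the 41 genes 20 had their highest group mean in a DEC group (17 of them in CD25+ cells), 13 in an LP group (11 of them in LP Treg cells), 5 in a lymph node subset and 3 in a homeostatic group. The lowest group mean was a lymph node subset for 21 genes, a homeostatic group for 15, LP Tconv for 4 and a DEC group for 1. These are levels across systems and carry no test, and in such bulk samples fewer cells that carry a transcript and less of it per cell cannot be told apart.

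**Figure D1:**
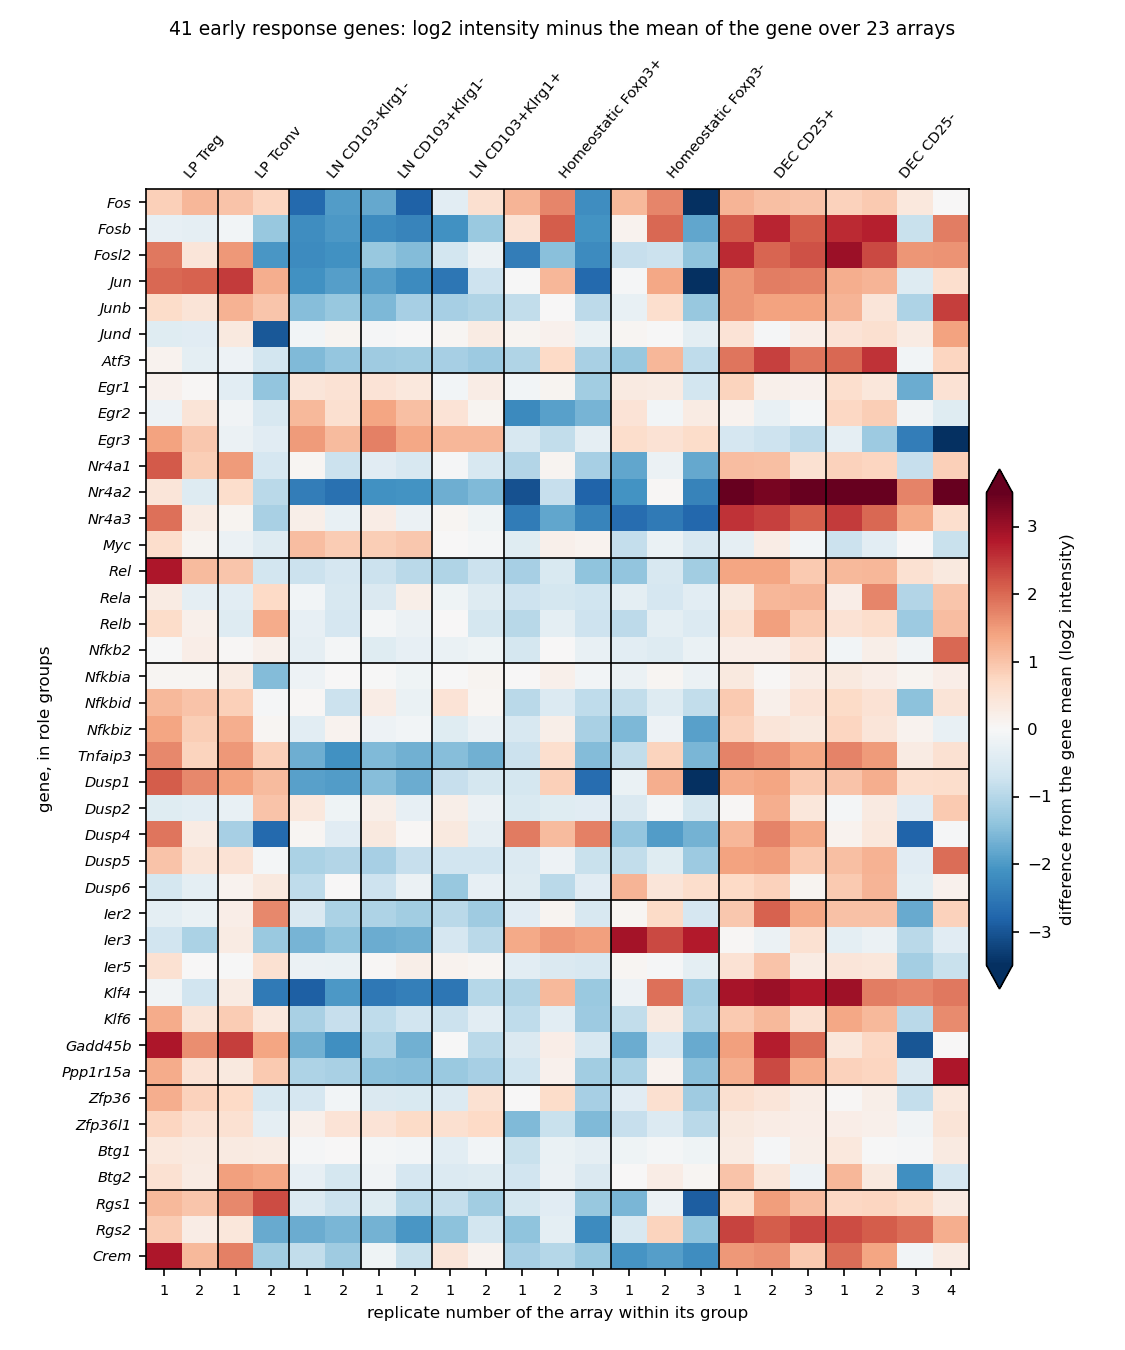
Each row is 1 of the 41 genes and each column 1 of the 23 arrays, grouped by cell population; colour is log2 intensity minus the mean of that gene over the 23 arrays, with red above and blue below and the scale clipped at 3.5. The DEC columns and most LP columns are red for many genes, the lymph node columns are mostly blue, and the columns of the homeostatic arrays numbered 3 are bluer than those of their groups' other arrays for Fos, Fosb, Jun and Dusp1.

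AP-1 is the dimeric factor that joins a Fos to a Jun family protein. The mean level of its subunit genes was higher in the gut and DEC groups than in the lymph node groups. Over these 6 subunits and Atf3, a stress-induced relative, the mean level was 9.59 in LP Treg and 9.20 in LP Tconv cells. It was 10.62 in DEC CD25+ and 10.12 in DEC CD25- cells, against 7.40, 7.51 and 8.21 in the lymph node subsets. The LP Tconv arrays were at 9.93 and 8.47, the lower of them below CD103+Klrg1+ replicate 2 (8.51). Jun lay at 10.79 and 10.86 in LP Treg cells and between 6.24 and 8.05 on the lymph node arrays. Fosl2 ranged from a group mean of 7.24 in CD103-Klrg1- cells to 11.70 in DEC CD25+ cells, and Fosb from 6.17 in CD103+Klrg1- cells to 10.73 in DEC CD25+ cells. Jund departed from this pattern, with 22 of 23 arrays between 10.10 and 11.92 and LP Tconv replicate 2 at 7.56.

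The Egr and Nr4a factors did not move together across the systems. Nr4a2, an orphan nuclear receptor, had the widest range of all 41 genes. It lay at 11.62, 11.23 and 11.39 in DEC CD25+ and at 11.40, 11.71, 9.65 and 12.27 in DEC CD25- cells, and at no more than 8.53 on any other array. Nr4a2 and Rgs2 were the 2 of 41 genes whose 7 DEC arrays all exceeded the other 16 arrays, where 0.831% of all tested genes did so. Rgs2, which damps signals through G protein-coupled receptors, was at 13.64, 13.40 and 13.63 in CD25+ and at 13.57, 13.40, 13.25 and 12.55 in CD25- cells, against 9.07 to 12.16 on the other arrays. Nr4a3, another member of that receptor family, was lowest in homeostatic cells, at 8.24 to 9.18 on their 6 arrays, below all 17 other arrays (9.85 to 13.52). Zfp36l1, which directs mRNA decay, was the other gene below all other arrays there (11.17 to 12.25), where 1.45% of tested genes were. Egr3, induced by calcium signals, differed from it in the DEC cells, with group means from 10.06 to 10.46 in the lymph node subsets and values of 8.58, 7.62, 6.48 and 5.31 in DEC CD25- cells. Egr1 had a narrow range, with group means from 11.30 in LP Tconv to 12.64 in CD103-Klrg1- cells.

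Among the NF-kB genes the subunit Rel and the inhibitor Tnfaip3 had the widest ranges of group means. Group means of Rel ran from 6.96 in homeostatic Foxp3- to 9.99 in LP Treg cells, while those of Nfkb2, the subunit of the slower non-canonical pathway, stayed within 0.86 of each other. Tnfaip3, the ubiquitin-editing enzyme A20 that shuts NF-kB signalling down, lay between 9.89 and 10.51 on the 6 lymph node arrays and between 12.30 and 13.75 on the 11 LP and DEC arrays. Nfkbia, the classical inhibitor IkB-alpha, was at 13.80 to 14.37 on 22 arrays and at 12.50 on LP Tconv replicate 2. Dimmer probe sets of Nfkbia varied more, such as one with means of 9.67 to 10.11 in the lymph node subsets, 11.66 in LP Treg and 12.69 in DEC CD25+ cells. Klf4, a zinc finger factor that restrains proliferation, ranged from a mean of 5.32 in CD103+Klrg1- to 10.66 in DEC CD25+ cells, with 3 group means below the filter of 6.27. Ier3, a short-lived survival regulator, was the 1 gene whose 6 homeostatic arrays (8.61 to 10.19) all exceeded the other 17 (5.55 to 7.81), where 3.64% of tested genes did so.

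The remaining genes of the stress, decay and signal-limiting roles are given by the range of their group means. Ppp1r15a, which reverses the block of translation under stress, had group means from 6.91 in CD103+Klrg1- to 10.02 in DEC CD25+ cells, and Atf3 from 5.78 in CD103-Klrg1- to 9.28 in DEC CD25+ cells. Klf6, a Krueppel-like factor, ran from 10.60 in CD103-Klrg1- to 12.45 in LP Treg cells, and Zfp36, the mRNA decay factor tristetraprolin, from 9.89 in CD103+Klrg1- to 11.45 in LP Treg cells. Rgs1 was highest in the Foxp3- cells of the gut instead, at a mean of 13.20 in LP Tconv cells. So was the brightest probe set of the antiproliferative gene Btg2, at 12.65. A dimmer Btg2 probe set was highest in DEC CD25+ cells, at 9.56, against 7.84 in LP Tconv cells. Btg1 had the smallest range of the 41 genes on its brightest probe set, with means from 12.87 in homeostatic Foxp3+ to 13.66 in LP Treg cells, while its dimmest probe set ran from 8.87 in LP Tconv to 12.49 in DEC CD25+ cells. Dusp6, unlike the other 4 phosphatases, was highest in homeostatic Foxp3- cells, at 9.85, 9.08 and 9.28.

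**Figure D2:**
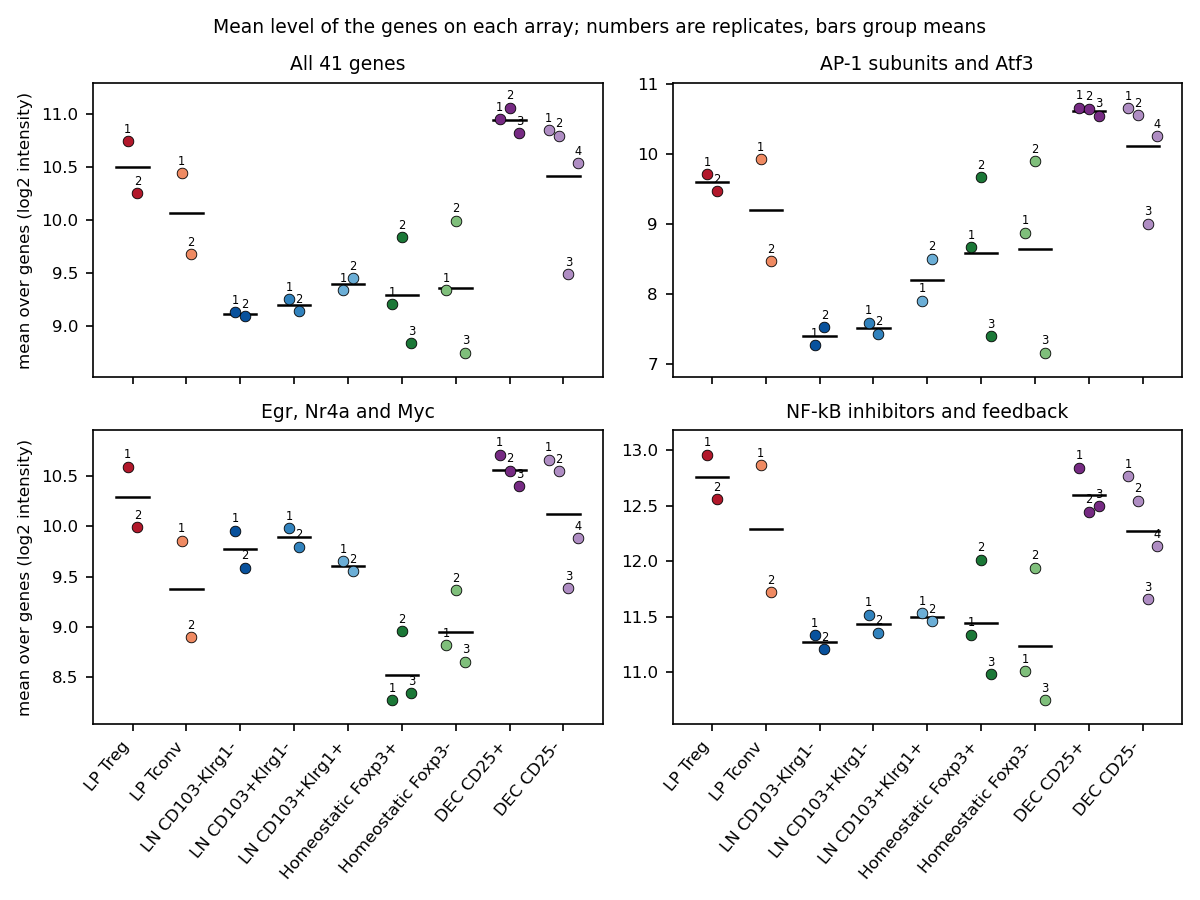
Points are arrays, labelled with their replicate number, and bars are group means of the 9 populations; the vertical axis is the mean log2 intensity over all 41 genes or over the genes of 1 role. The AP-1 mean lies between 7.27 and 8.51 on the lymph node arrays and between 10.55 and 10.67 on the DEC CD25+ arrays, and in both homeostatic groups replicate 2 is highest and replicate 3 lowest for all 41 genes and for AP-1.

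LP Treg cells were compared with each lymph node Treg subset, which share the strain and the reporter, to ask how Treg cells of the gut differ from those of lymph nodes. Of the 41 genes 7 rose and 0 fell in LP Treg cells against CD103-Klrg1- cells, where limma called 4.55% of all tested genes (2.43% higher and 2.13% lower). Against CD103+Klrg1- cells 3 rose (2.63% of all genes called, 1.13% higher and 1.49% lower), and against CD103+Klrg1+ cells 2 rose (2.05% called, 0.743% higher and 1.31% lower), with 0 falling in either. The 3 comparisons share the LP Treg arrays. The median log2 fold change of the 41 genes was 1.34, 1.12 and 1.06 in that order, beside 0.05, 0.06 and 0.05 over all tested genes, and 34, 34 and 36 of the 41 were above 0, beside 55.8%, 57.3% and 55.9% of all tested genes. The log2 fold change was above 1 for 24, 23 and 22 of the 41 genes, and for 4.15%, 2.40% and 1.72% of all tested genes. Both LP Treg arrays lay above both arrays of the subset for 33, 30 and 29 of the 41 genes (30.0%, 32.7% and 28.0% of all tested genes), and below them for 5, 5 and 2 (23.2%, 24.0% and 21.5%).

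Rel and Tnfaip3 rose against all 3 lymph node subsets. Rel was at 10.86 and 9.13 in LP Treg cells and at 7.28 and 7.43 in CD103-Klrg1-, 7.25 and 7.07 in CD103+Klrg1-, and 6.97 and 7.27 in CD103+Klrg1+ cells. Both LP Treg arrays were above all lymph node arrays, and they lay far apart from each other. The log2 fold changes of Rel were 2.64 ± 0.51, 2.83 ± 0.51 and 2.88 ± 0.51 (SE, n = 2 and 2 arrays), 6.23-fold to 7.34-fold, with limma adjusted p of 0.00399, 0.00435 and 0.00348. Tnfaip3 was at 13.70 and 12.78 in LP Treg cells and between 9.89 and 10.51 in lymph node cells, again without overlap. It was 8.88-fold, 7.14-fold and 7.09-fold higher (limma adjusted p = 0.00790, 0.0276 and 0.0317). A second Tnfaip3 probe set, of lower brightness, had means of 7.28 in LP Treg cells and 5.45 to 5.58 in the subsets. In LP Tconv cells Rel was at 8.98 and 7.39, and Tnfaip3 at 13.53 and 12.83.

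Gadd45b, a stress-induced protein that acts on MAP kinase signalling and on DNA demethylation, rose against both Klrg1- subsets. It lay at 12.43 and 11.24 in LP Treg cells, at 7.93 and 7.47 in CD103-Klrg1-, at 8.51 and 7.91 in CD103+Klrg1-, and at 9.60 and 8.65 in CD103+Klrg1+ cells. All LP Treg values exceeded all lymph node values, and the CD103+Klrg1+ arrays were the highest of the lymph node. The rise was 17.6-fold against CD103-Klrg1- (4.14 ± 0.87, limma adjusted p = 0.00745) and 12.3-fold against CD103+Klrg1- cells (3.62 ± 0.87, adjusted p = 0.0305). The 6.54-fold difference from CD103+Klrg1+ cells did not pass (adjusted p = 0.168). LP Tconv cells had Gadd45b at 12.01 and 10.97.

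The remaining 4 genes rose against CD103-Klrg1- cells alone among the 3 tests, and whether their differences from the 3 subsets were unequal was not tested. Dusp1, the phosphatase that dephosphorylates p38 and JNK, was at 12.55 and 12.12 against 8.53 and 8.46 (3.84 ± 1.04, adjusted p = 0.0411). Fosl2 was at 11.25 and 9.84 against 7.20 and 7.28 (3.31 ± 0.76, adjusted p = 0.0144), and its second probe set was nearly flat, with group means from 6.22 to 6.78 over the 9 groups. Crem, a factor of the cyclic AMP response, was at 12.21 and 10.51 against 8.52 and 8.14 (3.03 ± 0.74, adjusted p = 0.0213). Dusp5, an ERK phosphatase of the nucleus, was at 10.12 and 9.57 against 8.02 and 8.11 (1.78 ± 0.49, adjusted p = 0.0449). None of these 4 overlapped between the groups. On the LP Tconv arrays Dusp1 was at 11.83 and 11.54, Fosl2 at 10.94 and 7.36, Crem at 11.16 and 8.16, and Dusp5 at 9.64 and 9.08.

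The largest difference that did not pass was that of Jun, the AP-1 subunit that also pairs with Fos. Jun differed by 4.07 ± 1.23, 4.12 ± 1.23 and 3.68 ± 1.23 from the 3 subsets (limma adjusted p = 0.0749, 0.0997 and 0.198). Its LP Treg arrays, at 10.79 and 10.86, lay close together, but on the homeostatic arrays it ran from 5.01 to 10.12, and the fit shares 1 spread per gene over all groups. With only the arrays of the 2 groups compared, the adjusted p of Jun was 0.000505, 0.000627 and 0.0281. Its LP Tconv arrays were at 11.22 and 10.05. By role, the median log2 fold change against CD103-Klrg1- cells was 1.95 for AP-1 and Atf3, 1.33 for NF-kB inhibitors, 1.25 for the Dusp phosphatases and -0.12 for the Egr, Nr4a and Myc group. That last group was split. Nr4a1 was at 12.79 and 11.50 in LP Treg cells, against 10.73 and 9.90 in CD103-Klrg1- cells. Nr4a2 was at 8.34 and 7.47 against 5.49 and 5.30, and Nr4a3 at 12.92 and 11.30 against 11.21 and 10.73. Egr2, at 9.17 and 9.82 in LP Treg cells, lay below all CD103-Klrg1- and CD103+Klrg1- arrays (9.91 to 10.73). Myc, at 8.32 and 7.79, lay below all of these arrays too (8.55 to 8.78). None of these genes passed the test.

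The calls, more than the sizes, depended on single arrays. Each fit without 1 of the arrays compared called fewer of all tested genes too, so the loss of calls was not limited to these genes. For 33 of the 41 genes LP Treg replicate 1 was the higher of the 2 arrays, where it was the higher for 44.4% of all tested genes. Without it 0 genes passed in any of the 3 comparisons; Rel then differed by 1.77, 1.97 and 2.01 (limma adjusted p = 0.127, 0.134 and 0.123), Gadd45b by 3.54 (adjusted p = 0.138), Dusp1 by 3.62 (adjusted p = 0.289) and Tnfaip3 by 2.69 (adjusted p = 0.145) from CD103-Klrg1- cells. Without CD103-Klrg1- replicate 2, 1 gene passed against that subset, and without CD103-Klrg1- replicate 1, 3 did. Without CD103+Klrg1- replicate 2, 0 genes passed against that subset, and without its replicate 1, 1 did. Against CD103+Klrg1+ cells 1 gene passed without either array of that subset or without LP Treg replicate 2. The 2 LP Treg arrays had like 3' to 5' differences for Gapdh (2.42 and 2.65) and like T cell marker means (11.23 and 11.20).

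Some heat shock genes rose in gut cells in the same comparisons. Of 16 tested heat shock genes 4 rose against CD103-Klrg1- cells, and 3 against each of the other subsets, with 0 falling, beside 4.55%, 2.63% and 2.05% of all tested genes called. These were the inducible Hsp70 chaperones Hspa1a and Hspa1b and the endoplasmic reticulum chaperone Hspa5 in all 3, and Hsph1 in the first. Hspa1b had means of 12.67 in LP Treg and 12.76 in LP Tconv cells and of 6.84 to 8.57 in the lymph node subsets. Hspa1a lay between 9.57 and 10.95 on the 4 LP arrays and had lymph node means of 4.05 to 5.01, below the filter. The 17 heat shock genes with a probe set averaged 10.72 on both LP Treg arrays and 10.65 on both LP Tconv arrays, against 9.62 to 9.86 in lymph node, 9.55 to 9.86 in homeostatic and 9.69 to 10.40 in DEC cells. Unlike the 41 genes, the heat shock mean was equal on the 2 LP Treg arrays. Its part in the results above was not tested.

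**Figure D3:**
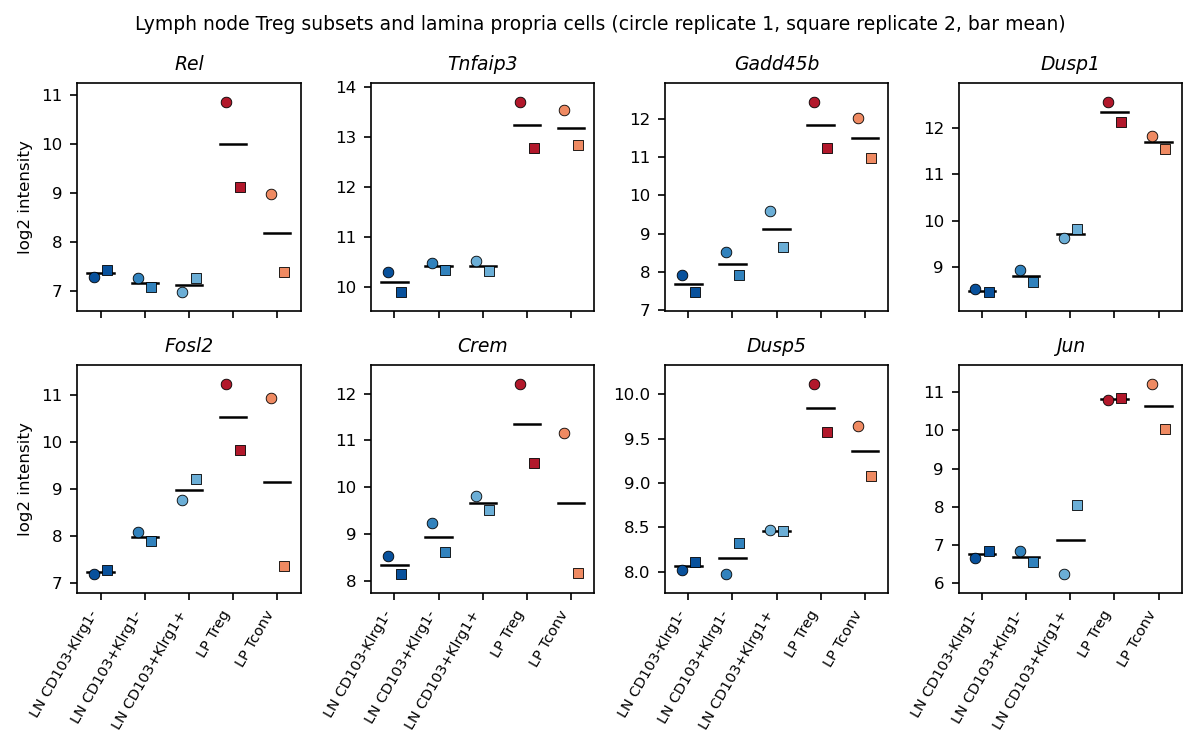
Each panel is 1 gene and each point 1 array, with circles for replicate 1, squares for replicate 2 and bars for the mean of the 2; the vertical axis is log2 intensity. For all 8 genes both LP Treg arrays lie above all 6 lymph node arrays, and LP Treg replicate 1 lies above replicate 2 for all but Jun.

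The promoters of Rel, Tnfaip3 and Gadd45b, the 3 genes that rose in more than 1 of these comparisons, are shown because the genes moved together in the gut cells. NF-kB is known to act on the promoters of the first pair. The windows hold 250 bases before and 50 after the annotated transcription start (RefSeq, build GRCm38.p6), 5' to 3' on the strand of the gene, and lie at chr11:23770920-23771219 for Rel (minus strand), chr10:19015361-19015660 for Tnfaip3 (minus strand, 1 of 2 annotated starts) and chr10:80929841-80930140 for Gadd45b (plus strand). Capitals mark matches on either strand to the AP-1 motif TGANTCA, the cyclic AMP response element (CRE) TGACGTCA, the CArG box of serum response factor or the kappa B site of NF-kB.
Rel: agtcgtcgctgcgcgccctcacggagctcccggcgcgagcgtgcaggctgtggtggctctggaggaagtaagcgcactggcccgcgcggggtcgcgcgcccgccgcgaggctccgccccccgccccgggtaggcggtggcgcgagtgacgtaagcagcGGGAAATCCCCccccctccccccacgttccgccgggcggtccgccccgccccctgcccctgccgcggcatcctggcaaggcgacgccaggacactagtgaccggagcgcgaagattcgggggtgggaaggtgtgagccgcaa
Tnfaip3: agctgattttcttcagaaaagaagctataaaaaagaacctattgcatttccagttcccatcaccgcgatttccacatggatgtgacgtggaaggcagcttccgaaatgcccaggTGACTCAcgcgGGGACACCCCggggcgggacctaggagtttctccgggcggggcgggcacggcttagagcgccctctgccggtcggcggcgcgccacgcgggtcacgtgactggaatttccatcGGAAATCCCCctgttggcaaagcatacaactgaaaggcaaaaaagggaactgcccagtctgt
Gadd45b: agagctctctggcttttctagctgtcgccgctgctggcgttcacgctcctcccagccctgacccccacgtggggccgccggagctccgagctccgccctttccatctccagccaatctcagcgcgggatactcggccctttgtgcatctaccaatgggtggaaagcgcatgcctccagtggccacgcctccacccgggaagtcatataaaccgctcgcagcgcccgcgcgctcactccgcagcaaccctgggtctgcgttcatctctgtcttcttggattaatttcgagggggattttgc

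The Rel window held 2 overlapping kappa B matches, the Tnfaip3 window 2 separate kappa B matches and 1 AP-1 match, and the Gadd45b window none of the 4 motifs. Bases outside the windows were not searched, so this does not show that Gadd45b lacks such sites. Of the 41 genes 32 had an entry, in 41 windows since some genes have several starts. A kappa B match stood in 13 of these 41 windows (31.7%), beside 8.46% of all 32851 windows of the table. These windows belonged to 11 of the 32 genes (34.4%, beside 9.55% of all genes), among them Fos, Fosb, Fosl2, Nfkbia, Nfkb2, Ier3 and Egr2. The list was chosen to hold NF-kB response genes, so an excess of this site is not independent of that choice. A CRE stood in 4 of the 41 windows (9.76%, beside 1.79% of all) and an AP-1 motif in 3 (7.32%, beside 7.81%). A CArG box stood in 6 windows (14.6%, beside 1.63%), which belonged to only 3 of the 32 genes (9.4%, beside 1.81% of all genes). These are matches of letters in a short window and were not tested.

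LP Treg cells were then compared with their Foxp3- neighbours of the gut. Dusp4, a nuclear phosphatase of ERK and JNK, was the 1 gene of the 41 that rose (1 higher and 0 lower, where limma called 2.70% of all tested genes). It lay at 11.72 and 10.12 in LP Treg and at 8.70 and 7.14 in LP Tconv cells, without overlap, 8.04-fold higher (3.01 ± 0.77, limma adjusted p = 0.0417). It did not pass without LP Treg replicate 1 (2.21, adjusted p = 0.568) or without LP Tconv replicate 2 (2.23, adjusted p = 0.447). The other large differences were those of Rel (1.81 ± 0.51, adjusted p = 0.0757) and Crem (1.70 ± 0.74, adjusted p = 0.466). The median over the 41 genes was 0.41, beside -0.01 for all tested genes, with 32 of 41 above 0, beside 48.8% of all. That median ranged from 0.02 without LP Tconv replicate 2 to 0.79 without LP Tconv replicate 1; leaving out 1 LP Treg array gave 0.22 (replicate 1) or 0.66 (replicate 2). The groups did not overlap for 9 genes higher in LP Treg cells (16.4% of all tested genes) and 6 lower (14.5%).

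The LP Tconv arrays disagreed on many of the genes. Replicate 2 was the lower for 32 of the 41 genes, where it was the lower for 42.9% of all tested genes. Fosl2 was at 10.94 and 7.36, Crem at 11.16 and 8.16, Jund at 10.87 and 7.56 and Rgs2 at 11.68 and 9.51, while Rgs1, which damps chemokine receptor signals, was at 12.91 and 13.49 and Ier2 at 10.17 and 11.61. The SD between arrays exceeded 1 for 13 of the 41 genes in this group, or 31.7%, against 5.86% of all tested genes. Without LP Treg replicate 2, 3 of the genes passed, without LP Tconv replicate 1, 7 did (Crem, Dusp4, Fosl2, Jund, Nfkbia, Nr4a3 and Rel), and without LP Tconv replicate 2, 0 did. Over all tested genes, calls also rose without LP Tconv replicate 1, and they fell without LP Treg replicate 2 or LP Tconv replicate 2. The 3' to 5' difference of Gapdh was 3.17 and 1.63 on the 2 LP Tconv arrays, and its part in the disagreement was not tested.

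In homeostatic cells, which started as Foxp3- cells of 1 receptor and were separated by Foxp3 after transfer, 1 gene rose and 2 fell in Foxp3+ cells, where limma called 1.76% of all tested genes (0.751% higher and 1.01% lower). Dusp4 was at 11.67, 10.95 and 11.62 in Foxp3+ and at 8.48, 7.90 and 8.20 in Foxp3- cells. The groups were far apart, and Dusp4 was 9.30-fold higher (3.22 ± 0.63, n = 3 and 3, limma adjusted p = 0.00809). Egr2, a zinc finger factor induced by antigen receptor signals and known to limit T cell activation, was at 7.14, 7.46 and 7.72 in Foxp3+ and at 9.85, 9.27 and 9.65 in Foxp3- cells. It fell by 2.15 ± 0.31 on the log2 scale (adjusted p = 0.00051), and its second probe set had means of 7.05 and 9.03. The Foxp3+ arrays were the 3 lowest of all 23 arrays for Egr2.

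Ier3 was at 8.61, 8.79 and 8.73 in Foxp3+ and at 10.19, 9.59 and 10.06 in Foxp3- cells, without overlap, and fell by 1.24 ± 0.31 (limma adjusted p = 0.047). It was lost on leaving out any 1 of the 6 arrays (adjusted p = 0.0523 to 0.244). With the replicate number as a block, 6 genes passed in place of 3, where 3.84% of all tested genes did. These were Dusp4 (adjusted p = 0.00273), Egr2 (0.00127) and Ier3 (0.0393), and also Dusp6, an ERK phosphatase of the cytoplasm (-1.34 ± 0.18, adjusted p = 0.00218, against 0.0963 without the block), Egr3 (-1.17 ± 0.26, adjusted p = 0.0314) and Nfkbiz, a nuclear IkB protein (0.73 ± 0.16, adjusted p = 0.0354). The median over the 41 genes was -0.04, beside -0.03 for all tested genes. The groups did not overlap for 4 genes higher in Foxp3+ cells (9.38% of all tested genes) and 9 lower (12.9%). Myeloid and dendritic markers averaged 7.45, 8.74 and 8.15 in Foxp3+ and 7.91, 9.18 and 8.27 in Foxp3- cells, and S100a8, a neutrophil and monocyte gene, had means of 8.93 and 9.55, against 4.71 to 4.96 in the other 7 groups; their part in these results was not tested.

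**Figure D4:**
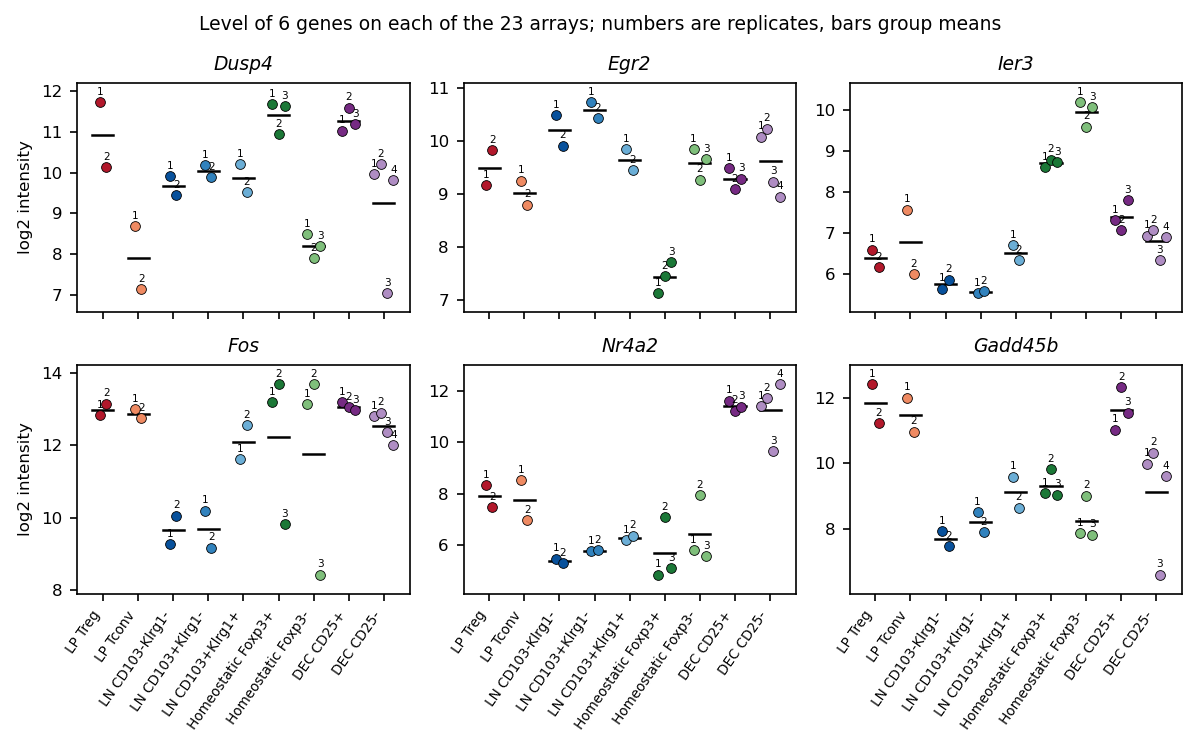
Each panel is 1 gene, with a point for each of the 23 arrays, labelled with its replicate number, and a bar for each group mean; the vertical axis is log2 intensity. Dusp4 is higher in Foxp3+ or CD25+ cells than in their partners in the LP, homeostatic and DEC groups, Egr2 is lowest in homeostatic Foxp3+ cells (7.14 to 7.72), and Fos on the homeostatic arrays numbered 3 (9.82 and 8.42) lies far below the other 4 (13.13 to 13.70).

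For a few genes the arrays within each homeostatic group lay further apart than the group means. Fos was at 13.19, 13.69 and 9.82 in Foxp3+ and at 13.13, 13.70 and 8.42 in Foxp3- cells, so that both arrays numbered 3 were low and both groups covered much the same range. Jun was at 8.76, 9.95 and 6.05 and at 8.73, 10.12 and 5.01, and Dusp1 at 9.81, 11.24 and 7.76 and at 10.18, 11.70 and 6.93. With Fosb these are the 4 of 41 genes that lay lower by over 2 on array 3 than on the mean of arrays 1 and 2 in both groups, as did 6 of the 12516 tested genes. In all, 21 of the 41 genes were lowest on array 3 in both groups (51.2%), as were 8.53% of all tested genes. Whether 1 number stands for shared mice or a shared day is not in the labels. The 3' to 5' differences of Gapdh on the arrays numbered 3 were 2.53 and 2.84, against 2.73 to 3.30 on the other 4, and their median intensities were 78.3 and 80.8. The myeloid marker means given above were highest on array 2 of each group (8.74 and 9.18), where 35 and 31 of the 41 genes were also highest, and lowest on array 1; their part was not tested. Without both arrays numbered 3, Egr2 still passed (-2.26, limma adjusted p = 0.0109), while Dusp4 (3.12, adjusted p = 0.148) and Ier3 (-1.19, adjusted p = 0.421) did not.

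**Figure D5:**
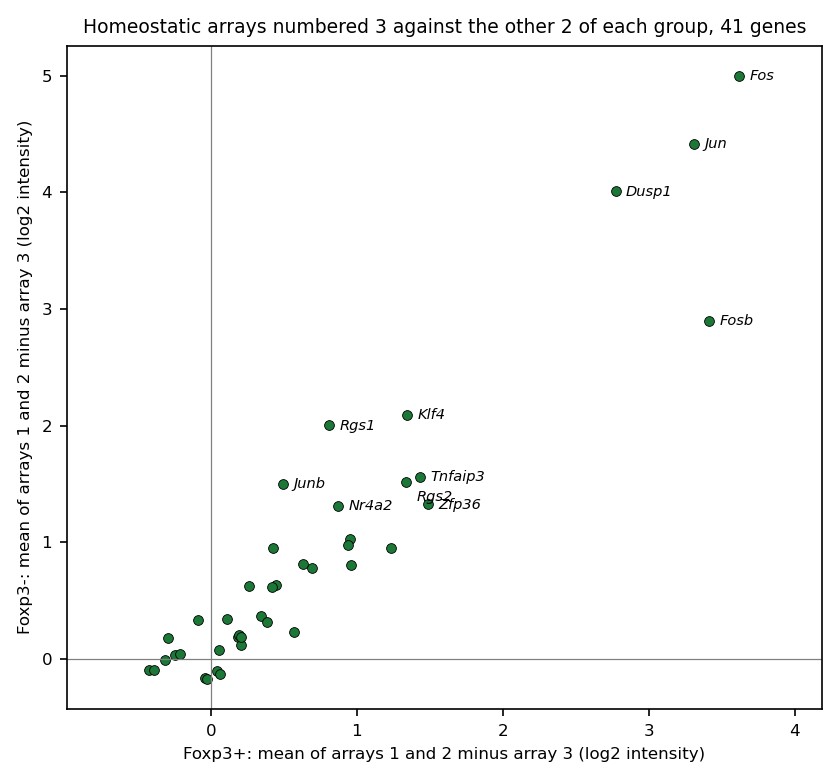
Each point is 1 of the 41 genes; the horizontal axis is the mean of arrays 1 and 2 minus array 3 in homeostatic Foxp3+ cells and the vertical axis the same in Foxp3- cells, in log2 intensity. Fos (3.62 and 5.00), Jun, Dusp1 and Fosb lie far from the rest, above 2 on both axes, and none of the other 37 genes exceeds 2 on both axes.

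In DEC cells, 0 of the 41 genes passed between CD25+ and CD25- cells with limma, where 0.495% of all tested genes passed. An unadjusted p under 0.05 was held by 5 of the 41 genes, and that share of all genes is not given here. Gadd45b had the largest difference, at 11.03, 12.34 and 11.55 in CD25+ and at 10.00, 10.33, 6.60 and 9.62 in CD25- cells. The groups did not overlap, and replicate 3 of the CD25- cells was far below the rest (2.50 ± 0.66, n = 3 and 4, adjusted p = 0.120). Dusp4 was at 11.02, 11.59 and 11.19 and at 9.97, 10.21, 7.05 and 9.81, again without overlap (2.01 ± 0.59, adjusted p = 0.171). With the replicate number as a block, CD25- replicate 4 has no partner and leaves this comparison, while replicate 3 stays. Both genes then passed with limma, Gadd45b at 2.66 ± 0.53 (adjusted p = 0.0412) and Dusp4 at 2.19 ± 0.44 (adjusted p = 0.0445). Of all tested genes 1.11% passed. Without the 2 dim CD25- arrays they differed by 1.48 (adjusted p = 0.407) and 1.18 (adjusted p = 0.558).

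A majority of the 41 genes lay higher in CD25+ cells, as did a majority of all genes. The median log2 fold change was 0.46 for the 41 genes and 0.16 for all tested genes, and 36 of 41 were above 0, beside 73.2% of all. The groups did not overlap for 5 genes higher in CD25+ cells (4.47% of all tested genes) and 0 lower (0.983%). DEC CD25- replicate 3 was the lowest array of its group for 32 of the 41 genes (78.0%) and for 42.7% of all tested genes; without that array the median of the 41 genes was 0.19, without both dim arrays 0.07, and after quantile normalisation 0.17, beside -0.05 for all genes. Ier2, with 10.89, 12.01 and 11.31 in CD25+ and 10.97, 10.96, 8.19 and 10.75 in CD25- cells, had overlapping groups and a difference of 1.19 ± 0.54 (adjusted p = 0.316), with only that array far below the rest. The spread within CD25- cells was wide, with an SD above 1 for 15 of the 41 genes, or 36.6%, and for 6.62% of all tested genes. Myeloid and dendritic markers averaged 7.06 to 7.83 in CD25+ and 6.46 to 7.16 in CD25- cells, and their part in these values was not tested.

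Among the lymph node Treg subsets 0 of the 41 genes passed in any of the 3 comparisons in the fit without a block. Limma called 0.0959% of all tested genes between CD103+Klrg1- and CD103-Klrg1-, 0.647% between CD103+Klrg1+ and CD103+Klrg1-, and 2.10% between CD103+Klrg1+ and CD103-Klrg1- cells. An unadjusted p under 0.05 was held by 0, 3 and 2 of the 41 genes, and that share of all genes is not given here. Fos had the largest difference, at 9.26 and 10.05 in CD103-Klrg1-, 10.19 and 9.17 in CD103+Klrg1-, and 11.62 and 12.57 in CD103+Klrg1+ cells. Both CD103+Klrg1+ arrays were above the other 4, and the log2 differences were 2.44 ± 1.26 and 2.41 ± 1.26 (limma adjusted p = 0.875 and 1). The SE of Fos is the one shared over the 9 groups, to which the homeostatic arrays contribute a range from 8.42 to 13.70. With the replicate number as a block Fos and Myc passed between CD103+Klrg1+ cells and each other subset, and Dusp1 against CD103-Klrg1- cells. Of 12516 tested genes 136 passed against CD103+Klrg1- and 453 against CD103-Klrg1- cells with that block. Whether the lymph node numbers pair the arrays was not settled.

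Other genes also lay higher in CD103+Klrg1+ cells without passing, among them Gadd45b (1.43 ± 0.87 from CD103-Klrg1- cells) and Ier3 (0.95 ± 0.38 from CD103+Klrg1- cells, adjusted p = 0.825). Fosl2 was at 7.20 and 7.28, then 8.09 and 7.90, then 8.78 and 9.21 in the 3 subsets in that order, with no overlap between any pair (1.76 ± 0.76 from first to last, adjusted p = 0.575). Crem was at 8.52 and 8.14, 9.24 and 8.60, and 9.81 and 9.52. Myc, a driver of cell growth, went the other way, at 8.78 and 8.59, 8.55 and 8.65, and 7.70 and 7.62, and differed by -1.02 ± 0.29 between the outer subsets (adjusted p = 0.0926). All 7 AP-1 and Atf3 genes had a difference above 0 between CD103+Klrg1+ and CD103-Klrg1- cells, with a median of 0.38, where 47.6% of all tested genes were above 0. The heat shock mean was 9.81 and 9.86 in CD103+Klrg1+ cells and 9.62 to 9.67 on the other 4 lymph node arrays. Ms4a1, a B cell gene, averaged 10.36 in CD103+Klrg1+, 9.63 in CD103-Klrg1- and 9.10 in CD103+Klrg1- cells, and the parts of both in these values were not tested.

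Whether a Foxp3+ or CD25+ cell differed from its partner by an unequal amount in 2 systems was tested gene by gene. Egr2 was the 1 gene of the 41 that passed, between LP and homeostatic cells (limma called 0.775% of all tested genes). The log2 difference of Egr2 was 0.47 between LP Treg and LP Tconv cells and -2.15 between homeostatic Foxp3+ and Foxp3- cells, an interaction of 2.62 ± 0.48 (adjusted p = 0.00951). It did not pass without LP Treg replicate 2 (2.30, adjusted p = 0.0799) or LP Tconv replicate 2 (2.40, adjusted p = 0.0725). Egr3 had as large a difference, 2.64 ± 0.80, that did not pass (adjusted p = 0.229). With limma 0 genes passed between LP and DEC cells, where 1.01% of all genes passed, and 0 between homeostatic and DEC cells, where 0.336% passed. An unadjusted p under 0.05 was held by 3 and 5 of the 41 genes, and that share of all genes is not given here. With the replicate block 1 gene passed between homeostatic and DEC cells, Dusp6 (-1.28 ± 0.25, adjusted p = 0.0401), where 1.1% of all tested genes did. For Dusp4 the differences of 3.01, 3.22 and 2.01 in the 3 systems were not told apart by these tests, with adjusted p from 0.705 to 1. The LP arrays were not taken as pairs. With a block on them too, limma passed Egr3 (adjusted p = 0.00849), Egr2, Nr4a3, Rel, Rgs2 and Zfp36l1 between LP and homeostatic cells. Nr4a3 and Rel then passed between LP and DEC cells. Of all tested genes 217 and 245 passed in these 2 comparisons.

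Genes of the same pathways that are not among the 41 were counted in the same fits. Of 42 further early response genes tested, 6 rose and 1 fell in LP Treg against CD103-Klrg1- cells, 3 rose and 1 fell against CD103+Klrg1- cells, and 4 rose and 0 fell against CD103+Klrg1+ cells, beside 4.55%, 2.63% and 2.05% of all tested genes called. Bhlhe40, a helix-loop-helix factor induced by activation, rose against all 3 (3.12 ± 0.61, 2.97 ± 0.61 and 3.66 ± 0.61), as did Nfil3, a basic leucine zipper factor (3.61, 2.34 and 1.85, each ± 0.45). Id2, an inhibitor of helix-loop-helix factors, rose against both Klrg1- subsets (3.96 and 3.14, each ± 0.38), and Tnf, the cytokine, fell by 1.22 ± 0.32 and 1.36 ± 0.32 against the same subsets. Cebpb, Mafg and Trib1 also rose against CD103-Klrg1- cells, and Gadd45g and Rhob against CD103+Klrg1+ cells.

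Id2 also rose in CD103+Klrg1+ cells against both other lymph node subsets (1.90 ± 0.38 and 2.72 ± 0.38, limma adjusted p = 0.0252 and 0.000315) and fell by 1.73 ± 0.31 in homeostatic Foxp3+ against Foxp3- cells, in each case as the 1 gene of the 42 that passed. Of all tested genes 0.647%, 2.10% and 1.76% were called in that order. Against LP Tconv cells 2 of the 42 rose in LP Treg cells, Nfil3 (2.20 ± 0.45, adjusted p = 0.00854) and Rgs16, a regulator of G protein signals (2.07 ± 0.47, adjusted p = 0.0192). There 2.70% of all tested genes were called. Of 23 further NF-kB pathway genes 1 rose against CD103-Klrg1- cells and 1 in DEC CD25+ cells, and in both it was Icam1, the adhesion ligand of LFA-1 (1.55 ± 0.31 and 1.32 ± 0.24). Birc3, an inhibitor of apoptosis, was the 1 that rose against CD103+Klrg1+ cells (1.15 ± 0.26). Of 27 upstream signalling genes 1 rose, Malt1, the protease of the antigen receptor complex to NF-kB (1.88 ± 0.33, adjusted p = 0.00189), and 1 fell, Sos1, a Ras activator (-0.99 ± 0.23), in LP Treg against CD103-Klrg1- cells. Limma called 4.55% of all tested genes in LP Treg against CD103-Klrg1- cells, 2.05% against CD103+Klrg1+ cells and 0.495% between the DEC groups. A single call in a list this short is not read as a result about the list.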

How the data were processed

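RNA of sorted cells was isolated with Trizol and amplified in 2 rounds before hybridisation, per the labels' protocols. The authors normalised the arrays with RMA and deposited intensity on a linear scale, per the submitters' processing notes and the series' design text; the version is not given in the sources used here. Intensity was converted to log2 without a pseudocount. Of 45101 probe sets 34945 named 1 gene symbol, and each gene was represented by its brightest probe set, by the mean of the 23 arrays. Genes were tested where at least 1 group mean exceeded the median of all values (6.27 on the log2 scale, an intensity of 77.0). All 23 arrays entered 1 limma fit (limma 3.58.1, R 4.3.3) of 9 group means with 14 residual degrees of freedom, and p-values were adjusted by Benjamini-Hochberg over 12516 genes, at a threshold of 0.05. The fit was tested on simulated data. Values after ± are standard errors.

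The 42 genes and all lists were chosen with earlier results of these data known. Named with values were genes that passed any comparison, the 3 largest changes of a comparison, the 8 widest ranges of group means and genes that describe a role; a few others were chosen after their values were seen. With at least 3 shared numbers, same-numbered arrays were taken as pairs where every pair's deviations from the group means correlated above 0.1. This held in the homeostatic groups (0.66, 0.58 and 0.49 over genes) and the DEC groups (0.39, 0.51 and 0.38). The lymph node groups, at 0.39, 0.72 and 0.37, have only 2 numbers and were not taken as pairs. The labels do not say what a number shares. The number of arrays limits precision. Tables and plots used Python 3.11.15, pandas 2.3.3, numpy 2.4.6 and matplotlib 3.10.9. Alternatives were other probe set rules, quantile normalisation, no filter, fits of only the arrays compared, array weights, a replicate block and arrays left out.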

Additional observations from a re-analysis of the deposited data

Results flagged for a closer look

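In the DEC CD25- group of 4 arrays, 1 array stood far from the other 3 for 7 of the 41 genes by Dixon's criterion. Chance meets that criterion in about 1 in 20 groups of like arrays, and the share of all tested genes that met it is not given here. Replicate 3 was low for 5 of the 7 genes. It was also the lowest array of its group for 42.7% of all tested genes, with a 3' to 5' difference of 6.59 for Gapdh. Egr1 was at 10.45 there and at 12.57 to 12.75 on the other arrays, and Nr4a1, the Nur77 receptor, at 9.83 against 11.40 to 11.47. Nfkbid, a nuclear IkB protein, was at 8.67 against 10.55 to 10.76, Dusp4 at 7.05 against 9.81 to 10.21 and Ier2 at 8.19 against 10.75 to 10.97. Replicate 4 was high for Nfkb2, at 9.65 against 7.50 to 7.84, and replicate 1 for Klf4, at 10.74 against 9.48 to 9.61. Egr2 differed between LP and homeostatic cells in its Foxp3+ minus Foxp3- difference, by 2.62 on the log2 scale in a tested interaction.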

How the results depend on the processing

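For 36 results of single genes, 460 alternatives were run, and none reversed the direction: 377 stayed on the same side of the threshold, called or not, 31 gained a call and 52 lost one. The number of the 41 genes that passed moved as follows. Between LP Treg and LP Tconv cells it was 1 in the fit reported, 2 after quantile normalisation, 0 with no filter, 0 with only the arrays compared and 3 without both dim DEC CD25- arrays. In homeostatic cells it was 3, against 6 with only the arrays compared, 8 with array weights, 5 without the dim DEC arrays and 1 without both arrays numbered 3. In DEC cells it was 0, and 1 with the mean of probe sets. From CD103+Klrg1- to CD103+Klrg1+ cells it was 0, and 2 with array weights. From CD103-Klrg1- to CD103+Klrg1+ cells it was 0, against 4 with only the arrays compared, 2 with array weights and 1 without the dim DEC arrays. For LP Treg against CD103-Klrg1- cells it was 7, against 11 with the mean of probe sets, 21 with only the arrays compared, 13 with array weights and 12 without the dim DEC arrays. Against CD103+Klrg1- cells these were 3, 6, 22, 14 and 9, and against CD103+Klrg1+ cells 2, 4, 9, 5 and 6. For the LP minus homeostatic difference it was 1, and 2 each with only the arrays compared, with array weights and without the dim DEC arrays. For the homeostatic minus DEC difference it was 0, against 1 with only the arrays compared and 3 with array weights. The number of all tested genes that passed, out of 11056 to 18193 by setting, moved too. In the order of settings above it was 338, 376, 338, 17 and 557 between LP Treg and LP Tconv cells. In homeostatic cells it was 220, 741, 1236, 435 and 74. For LP Treg against CD103-Klrg1- cells it was 570, 563, 1006, 1494 and 1082. Against CD103+Klrg1- cells it was 329, 310, 801, 1347 and 650, and against CD103+Klrg1+ cells 257, 261, 278, 648 and 448. The fits of only the arrays compared have fewer arrays, and the cause of the other shifts was not tested.

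Leaving out 1 array at a time gave 0 to 7 genes between LP Treg and LP Tconv, 2 in every homeostatic case, 0 to 2 in DEC cells, 0 in the 3 lymph node comparisons, 0 to 5, 0 to 2 and 0 to 1 for LP Treg against the 3 lymph node subsets, and 0 to 4, 0 to 3 and 0 to 2 for the LP minus homeostatic, LP minus DEC and homeostatic minus DEC differences. The number of all tested genes that passed moved with the array left out as well. Where 1 array was left in a group of 2, it was assumed to vary like the other groups.

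With the replicate number as a block 5 genes passed between LP Treg and LP Tconv (Crem, Dusp4, Egr3, Nr4a3 and Rel), 6 in homeostatic and 2 in DEC cells, 2 from CD103+Klrg1- to CD103+Klrg1+ (Fos and Myc), 3 from CD103-Klrg1- to CD103+Klrg1+ (Dusp1, Fos and Myc), 19, 15 and 11 for LP Treg against the 3 subsets, and 6, 2 and 1 for the LP minus homeostatic, LP minus DEC and homeostatic minus DEC differences. Of all 12516 tested genes the block called 615 between LP Treg and LP Tconv, 480 in homeostatic and 139 in DEC cells. It called 136 and 453 in the named lymph node comparisons, and 959, 592 and 451 for LP Treg against the 3 subsets. For the differences between systems it called 217, 245 and 138. Deviations of same-numbered arrays correlated at -0.07 in the LP groups and at 0.39, 0.72 and 0.37 in the lymph node groups. There 2 arrays per group give only 1 independent value a pair of groups. Whether the lymph node numbers pair the arrays was not settled.

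With 2 arrays per group and 1 spread per gene over all groups, a difference that misses the threshold does not show equal levels.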
